A study of Mus musculus with 18 samples.

Results

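Genes of the endoplasmic reticulum (ER) stress response were examined in colon epithelial cells (CECs) of wild type (WT) and Mbd2-/- mice, before and during dextran sulfate sodium (DSS) colitis. The genes were Hspa5, Xbp1, Ddit3, Atf3, Atf4, Herpud1, Dnajb9, Ern2, Pdia4 and Hsp90b1, a set listed by name with no threshold on a measured value, though earlier results of these data were known when it was drawn up. All 10 were on the array, among 30869 gene symbols, by 14 of its 45281 probes, since Ddit3, Atf4, Herpud1 and Dnajb9 had 2 probes each. Each of the 14 probes was detected on all 18 arrays and passed the filter on dim probes, so no gene of the set was left out.

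RNA of FACS-sorted colon epithelium was hybridised to Illumina MouseWG-6 BeadChips, on which beads carry probes 50 bases long. The 4 groups were untreated WT mice (Naive_WT), untreated Mbd2 knockout mice (Naive_KO), WT mice given 2% DSS (DSS_WT) and Mbd2 knockout mice given 2% DSS (DSS_KO), with 4 samples in each. DSS in the drinking water injures the colon lining and brings on colitis. The deletion was global, so every cell type of the knockout animals lacked Mbd2, a protein that binds methylated DNA. The study describes the WT controls of the DSS-treated cells as co-housed littermates. In general it states co-housing where possible. By the study's methods a replicate could pool several mice and the sort kept EpCAM+ cells that lacked CD45, CD3 and a macrophage marker. The labels do not tie a sample to an animal, so p-values measure the spread between these samples. Arrays 4R and 5R, read as repeats of DSS_WT 4 and DSS_KO 5 from their labels, were averaged with them. The labels do not say what R means, and the study counts 5 biological replicates per genotype for these cells with DSS.

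The ER folds proteins that cells secrete or place in membranes, and misfolded protein there sets off the unfolded protein response. Its sensors are Ire1 (Ern1, and in gut epithelium the paralog Ern2), Perk (Eif2ak3) and Atf6. Ire1 splices the mRNA of the transcription factor Xbp1, Perk raises translation of Atf4, which turns on Ddit3, and Atf6 turns on chaperone genes. Mucus-secreting goblet cells of the colon carry a heavy folding load and depend on this response. A probe for a transcript reads the amount of mRNA and not the splicing of Xbp1, the cleavage of Atf6 or the translation of Atf4.

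The arrays detected 18851 to 20618 probes each, and 21938 probes of 15757 genes were tested. The mean signal of the negative control probes was 100.5 to 111.4 on the untreated arrays. It was 113.3 to 133.8 on the DSS arrays, repeats aside, and the repeats gave 113.4 (4R) and 103.4 (5R). Array background thus ran with treatment, and a difference between array runs cannot be told apart from DSS. All 8 colon epithelium markers were tested. So were 6 of 10 B and plasma cell, 7 of 9 myeloid, 5 of 8 neutrophil and 4 of 8 T and NK cell markers. All 10 smooth muscle and fibroblast and all 7 endothelial markers were tested too. Ms4a1 of the B cell list, Itgam of the myeloid list, Cxcr2 and Mmp8 of the neutrophil list and Cd8a and Gzmb of the T and NK cell list were detected on no array. The probe for Mbd2 was detected on none of the 18 arrays, WT included, so it does not check the genotype labels.

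The stress response acts on its targets through short promoter motifs, and the windows that held a full ER stress element or a C/EBP-ATF element are shown because the genes below differ in them. Promoters of 9 of the 10 genes were taken from RefSeq (build GRCm38.p6), from 250 bases before to 50 after the start site. Motif letters were searched on both strands. The ER stress element, CCAAT, any 9 bases and CCACG, stood in 0.119% of the 32851 promoters of the table and in those of Hspa5 and Hsp90b1. With any last base in place of the G it stood in 0.365% of promoters, and in those of Herpud1 and Pdia4 as well. The C/EBP-ATF element TGATGNAA, bound by Atf4, stood in 3.97% of promoters and in those of Atf3 and Herpud1. The element TGACGTGG (0.676% of promoters) and the cyclic AMP element TGACGTCA (1.79%) stood in none of the 9 windows, which says only that these letters are not there. Capitals mark the motif, and each line reads 5′ to 3′ on the strand of the gene:
Hspa5, chr2:34771995-34772073, plus strand: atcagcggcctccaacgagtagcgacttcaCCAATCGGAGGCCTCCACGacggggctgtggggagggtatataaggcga
Hsp90b1, chr10:86705608-86705686, minus strand: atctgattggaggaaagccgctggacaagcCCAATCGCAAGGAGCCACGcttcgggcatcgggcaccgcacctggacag
Hsp90b1, chr10:86705503-86705581, minus strand: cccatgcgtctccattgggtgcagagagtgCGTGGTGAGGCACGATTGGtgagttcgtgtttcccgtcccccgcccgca
Atf3, chr1:191183406-191183473, minus strand: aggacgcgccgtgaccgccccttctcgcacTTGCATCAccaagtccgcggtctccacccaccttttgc
Herpud1, chr8:94386287-94386354, plus strand: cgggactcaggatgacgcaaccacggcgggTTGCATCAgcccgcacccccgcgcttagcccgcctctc
The second Hsp90b1 element and the elements of Atf3 and Herpud1 read in the reverse direction. Counted from the start site, the motif of Hspa5 spanned positions -65 to -47, those of Hsp90b1 -212 to -194 and -107 to -89, that of Atf3 -110 to -103 and that of Herpud1 -112 to -105.

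The first question was whether loss of Mbd2 or DSS moved these genes as a set. A probe was called where the adjusted p of limma's moderated test was under 0.01 and the fold change at least 2 (a log2 fold change of 1), the thresholds of the study's methods. None of the 14 probes was called in any comparison. In DSS_KO against DSS_WT, 0.862% of all tested probes were called, in Naive_KO against Naive_WT 0.656%, in DSS_WT against Naive_WT 1.74% and in DSS_KO against Naive_KO 1.72%. When any fold was accepted at an adjusted p under 0.05, 2 of the 14 probes passed, those of Ern2 and Ddit3, and both fell in DSS_KO against Naive_KO, where 9.42% of all probes passed. No probe of the set passed this limit in DSS_KO against DSS_WT (5.63% of all probes), Naive_KO against Naive_WT (5.19%) or DSS_WT against Naive_WT (10.5%). At an unadjusted p under 0.05, limma gave 2, 2 and 6 of the 14 probes in these 3 comparisons and 6 in DSS_KO against Naive_KO, beside 22.2%, 22.8%, 26.3% and 24.5% of all probes.

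The test of whether DSS acted differently in the 2 genotypes, the interaction, passed for 0.0% of all probes under either rule (limma), with 2339 of 21938 at an unadjusted p under 0.05. Of the 14 probes, 1 had an unadjusted p under 0.05, that of Hspa5. The data could show changes of the size the call requires for most of the set. The 95% interval of the log2 fold change lay within -1 and 1 for 13 of 14 probes in DSS_KO against DSS_WT and for all 14 in Naive_KO against Naive_WT. Smaller differences are not excluded by these intervals, and a p that missed the limit does not show equal levels.

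**Figure D1:**
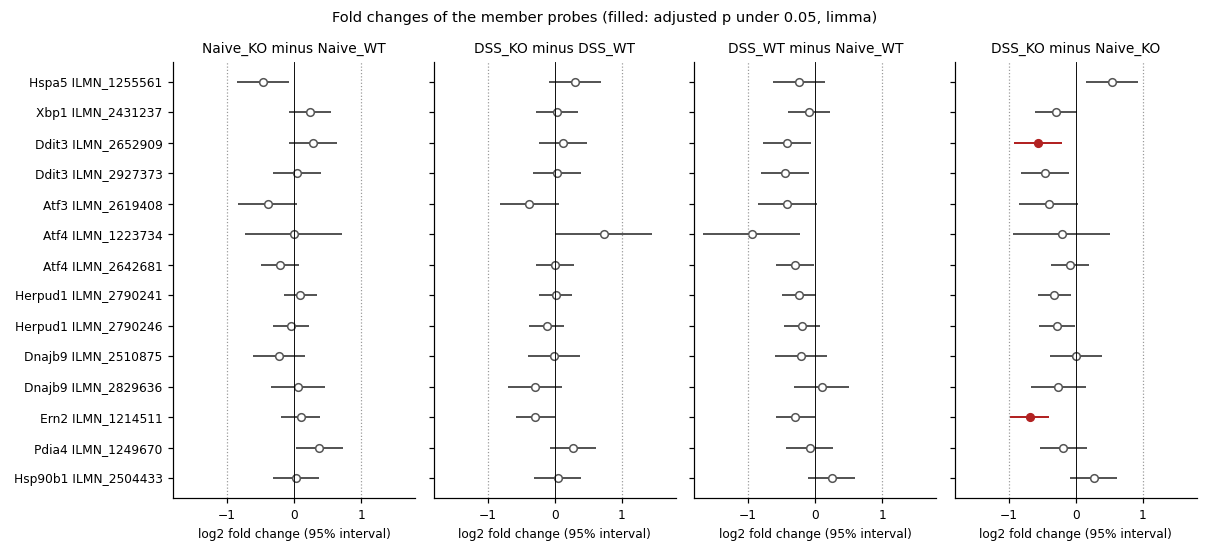
Log2 fold changes of the 14 probes (points) with 95% intervals (lines) in the 4 comparisons, with dotted lines at -1 and 1. The filled red points, Ern2 and 1 probe of Ddit3 in DSS_KO minus Naive_KO, are those with an adjusted p under 0.05, and no point lies beyond a dotted line.

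With DSS the values lay mostly below 0. The fold change was negative for 12 of 14 probes in DSS_WT against Naive_WT (median -0.24, against -0.01 over all probes) and for 11 of 14 in DSS_KO against Naive_KO (median -0.27, against -0.02). The sign depended on the normalization, since scaling each array to a common median gave 4 of 14 negative values in each comparison. That scaling equalized the median of all 45281 probes in the table, of which 41.6% to 45.5% were detected on an array. It moved the median of the 21938 tested probes, the ones meant here by all probes, to 0.24 and 0.23. In each comparison 10 of 14 probes still lay below that median. With loss of Mbd2 the values had no shared sign, with 9 of 14 positive in DSS_KO against DSS_WT (median 0.02) and 8 of 14 in Naive_KO against Naive_WT (median 0.03). Common-median scaling left 4 and 3 of 14 positive there, with the median of all probes at -0.08 and -0.07. Values given below under this scaling include these shifts unless they are set against that median.

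**Figure D2:**
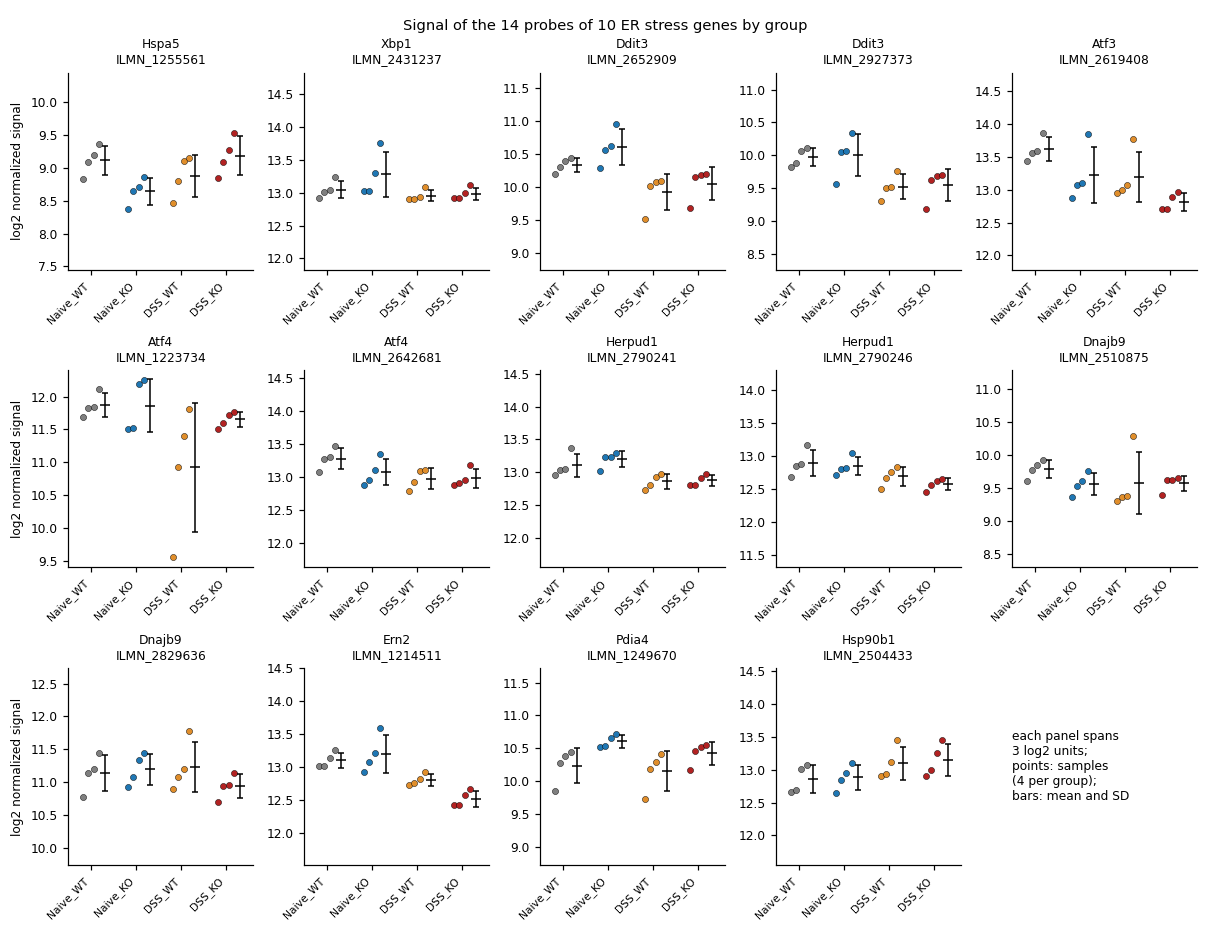
Log2 normalized signal of each probe in the 16 samples, a panel per probe and each panel 3 log2 units high, with points for samples and bars for the mean and SD of 4 samples. Ern2 shows all DSS_KO samples (12.42 to 12.66) under all Naive_KO samples (12.92 to 13.60), while most other panels overlap between groups.

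Ern2 encodes Ire1 beta, the Ire1 sensor of gut epithelium and goblet cells. Its log2 signal was 13.01, 13.02, 13.14 and 13.25 in Naive_WT and 12.92, 13.08, 13.21 and 13.60 in Naive_KO. With DSS it was 12.72, 12.75, 12.82 and 12.93 in DSS_WT and 12.42, 12.42, 12.58 and 12.66 in DSS_KO. The DSS_KO samples were the lowest of the 16, and no DSS_KO sample reached any sample of another group. Ern2 fell in DSS_KO against Naive_KO by 0.68 on the log2 scale (SE 0.13, a fold of 1.61, limma adjusted p = 0.00432). In DSS_WT against Naive_WT the difference was -0.30 (adjusted p = 0.153), and in DSS_KO against DSS_WT it was -0.29 (adjusted p = 0.208), with groups that did not overlap in either. A stronger effect of DSS on Ern2 in the knockout was not shown, with an interaction of -0.38 (SE 0.18, unadjusted p = 0.0543, adjusted p = 0.479, limma).

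The fall of Ern2 was not past the limit under common-median scaling, where it was -0.27 (adjusted p = 0.192), or -0.50 below the median of all probes. It passed under the other 24 alternatives. Markers of goblet cells were read beside it, since Ern2 is a goblet cell gene. Of 8 goblet cell markers, 1 fell in DSS_KO against Naive_KO at an adjusted p under 0.05, Fcgbp, a mucus protein, at -1.97 (adjusted p = 0.0443). In this comparison 2 of the 8 markers lay above 0, with a median of -0.19. Their mean log2 signal was 13.33 in Naive_KO (12.80 to 13.88) and 12.91 in DSS_KO (12.58 to 13.52). The summed signal of the 8 markers ranged from 84817 to 147815 in Naive_KO and from 86021 to 121787 in DSS_KO. Over 16 samples Ern2 and the mean log2 signal of these markers had a Pearson r of 0.13. In bulk samples, fewer cells of a type and less RNA per cell cannot be told apart.

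Markers of other cell types rose with DSS in spite of the sort. Of 7 tested myeloid markers, 6 rose in DSS_WT against Naive_WT and 6 in DSS_KO against Naive_KO, with medians of 1.51 and 1.13 on the log2 scale. The summed myeloid signal ranged from 1525 to 2941 in Naive_KO and from 3616 to 4194 in DSS_KO, and from 1269 to 1736 in Naive_WT and from 2100 to 4375 in DSS_WT. Of 5 tested neutrophil markers, 2 and 3 rose in these comparisons, and the summed signal went from 138 to 188 in Naive_KO to 394 to 2599 in DSS_KO. The summed B and plasma cell signal was higher, 5900 to 14007 in Naive_WT, 6014 to 21139 in Naive_KO, 14889 to 27335 in DSS_WT and 17357 to 27229 in DSS_KO. That of smooth muscle and fibroblast markers was 8486 to 16009, 7364 to 9294, 12942 to 16699 and 6138 to 9080 in the same order. The markers that rose in DSS_WT against Naive_WT also included 3 of 10 smooth muscle and fibroblast markers, 2 of 4 T and NK cell markers, 1 of 6 B and plasma cell markers and 1 of 7 endothelial markers, with medians of 0.53, 0.42, 0.75 and 0.31, and in DSS_KO against Naive_KO no marker of these 4 lists passed. Of 8 epithelial markers, 1 fell in DSS_WT against Naive_WT and none passed in DSS_KO against Naive_KO. Ern2 and the myeloid mean had a Pearson r of -0.76 over the 16 samples, which share groups and arrays, and the part of these cells in the results with DSS was not tested.

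Ddit3 encodes Chop, the transcription factor that marks prolonged ER stress and can lead to cell death. Its 2 probes read different stretches of the transcript, which are shown because the 2 readings are used as a check on each other. From the array annotation they are, 5′ to 3′ and with no part singled out:
Ddit3 probe ILMN_2652909: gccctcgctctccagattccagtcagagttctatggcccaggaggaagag
Ddit3 probe ILMN_2927373: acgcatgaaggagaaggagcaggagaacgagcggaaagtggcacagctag
Probe ILMN_2652909 gave 10.29, 10.57, 10.62 and 10.97 in Naive_KO and 9.68, 10.15, 10.18 and 10.19 in DSS_KO, with no overlap. Its values were 10.20, 10.31, 10.40 and 10.45 in Naive_WT and 9.52, 10.01, 10.07 and 10.09 in DSS_WT, again with no overlap. Thus every DSS sample of a genotype lay under every untreated sample of that genotype. Ddit3 by this probe fell in DSS_KO against Naive_KO by 0.56 on the log2 scale (SE 0.16, a fold of 1.48, limma adjusted p = 0.0385). In DSS_WT against Naive_WT the difference was -0.41 (adjusted p = 0.113). Probe ILMN_2927373 gave -0.46 in DSS_KO against Naive_KO (adjusted p = 0.0845) and -0.45 in DSS_WT against Naive_WT (adjusted p = 0.0848). The 2 probes had a Pearson r of 0.93 over the 16 samples. Between genotypes, the first probe differed by 0.27 in untreated mice (adjusted p = 0.329), and the other differences of Ddit3 were under 0.2.

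The Ddit3 result was less firm than that of Ern2. It missed the limit with no filter on dim probes (adjusted p = 0.0616), with only the 2 groups in the fit (adjusted p = 0.0731) and when any 1 of DSS_KO replicates 5, 6 and 8 or Naive_KO replicates 13, 14 and 16 was left out. Under common-median scaling it was -0.19 (adjusted p = 0.574), where the median of all probes lay above 0. The array of DSS_KO replicate 5, averaged with its repeat, had the lowest Ddit3 signal of its group by both probes, 9.68 and 9.18. The Pearson r of Ddit3 with the neutrophil mean was -0.72 and with the myeloid mean -0.63 over the 16 samples.

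**Figure D3:**
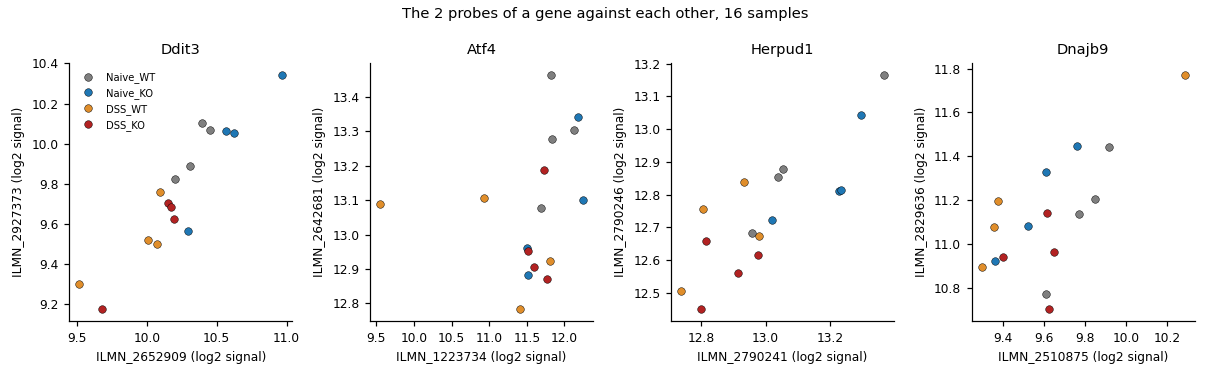
Log2 signals of the 2 probes of a gene against each other, a panel per gene and a point per sample coloured by group, for Ddit3, Atf4, Herpud1 and Dnajb9 (16 samples). The probes of Ddit3 follow each other closely, with a Pearson r of 0.93, and those of Atf4 do not, with 0.23.

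Atf4 encodes the transcription factor that Perk signalling raises at the level of translation, so its mRNA is only a part of its control. Its 2 probes disagreed. Probe ILMN_1223734, at position 553 of the transcript, gave 9.55, 10.93, 11.40 and 11.81 in DSS_WT, where the other probe, at position 1570, gave 12.78, 12.92, 13.09 and 13.11. The first probe thus spread far more within this group than the second. In the other groups the first probe gave 11.69 to 12.12 (Naive_WT), 11.50 to 12.24 (Naive_KO) and 11.51 to 11.77 (DSS_KO). DSS_WT against Naive_WT was -0.94 by the first probe (SE 0.33, limma adjusted p = 0.0828) and -0.30 by the other (SE 0.13, adjusted p = 0.135). In DSS_KO against DSS_WT the first probe differed by 0.73 (adjusted p = 0.211) and in the interaction by 0.73 (adjusted p = 0.623). The low value of 9.55 was that of DSS_WT replicate 2. Without this sample, DSS_WT against Naive_WT was -0.49 by the first probe (limma adjusted p = 0.178), and without DSS_WT replicate 1, the highest of its group, it was -1.24 (adjusted p = 0.0211). Without replicate 2 the difference in DSS_KO against DSS_WT was 0.27 and the interaction 0.28.

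Atf3 encodes a transcription factor that Atf4 induces and that also answers to other stresses and cytokines. Its signal was 13.44, 13.56, 13.59 and 13.87 in Naive_WT and 12.70, 12.71, 12.89 and 12.97 in DSS_KO. The Naive_KO samples (12.87, 13.07, 13.10 and 13.84) and the DSS_WT samples (12.94, 13.00, 13.07 and 13.77) overlapped both, with 1 sample of each within the DSS_KO range and 1 within the Naive_WT range. The 4 differences were nearly equal, at -0.39 in Naive_KO against Naive_WT, -0.38 in DSS_KO against DSS_WT, -0.42 in DSS_WT against Naive_WT and -0.40 in DSS_KO against Naive_KO. None passed (limma adjusted p from 0.198 to 0.284). Atf3 had a Pearson r of -0.79 with the mean of the B and plasma cell markers and -0.75 with that of the myeloid markers over the 16 samples.

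Xbp1 encodes the transcription factor whose mRNA Ire1 splices, and it is needed for the secretory cells of the gut. Its signal ranged from 12.90 to 13.76 over the 16 samples. The Naive_KO samples gave 13.02, 13.03, 13.31 and 13.76, and the other groups lay between 12.90 and 13.23. Xbp1 differed by 0.23 in Naive_KO against Naive_WT (limma adjusted p = 0.350) and by -0.29 in DSS_KO against Naive_KO (adjusted p = 0.215), with overlapping groups.

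Among the chaperones, Hspa5 encodes BiP, the main chaperone of the ER lumen, which holds the sensors inactive until unfolded protein draws it away. Its signal was 8.82, 9.09, 9.19 and 9.36 in Naive_WT and 8.37, 8.65, 8.71 and 8.86 in Naive_KO. With DSS it was 8.47, 8.80, 9.11 and 9.14 in DSS_WT and 8.84, 9.09, 9.28 and 9.53 in DSS_KO. The means, 9.12, 8.65, 8.88 and 9.18, thus put Naive_KO lowest and DSS_KO highest, and all pairs of groups overlapped. DSS_KO against Naive_KO was 0.54 (SE 0.18, limma adjusted p = 0.0660) and DSS_WT against Naive_WT was -0.24 (adjusted p = 0.422). Between genotypes the difference was -0.47 in untreated mice (adjusted p = 0.127) and 0.30 with DSS (adjusted p = 0.333). The interaction was 0.77 (SE 0.25, unadjusted p = 0.00662), the smallest unadjusted p of the set there, and it did not pass adjustment over all probes (adjusted p = 0.270). Under common-median scaling DSS_KO against Naive_KO was 0.90 (adjusted p = 0.00868), or 0.67 above the median of all probes, and Hspa5 also passed the 0.05 limit with array weights and in 2 of the 16 fits that left out a sample.

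Hsp90b1 encodes Grp94, the ER member of the Hsp90 family, and Pdia4 an ER protein disulphide isomerase. Hsp90b1 gave 12.66, 12.69, 13.01 and 13.07 in Naive_WT and 12.91, 12.93, 13.12 and 13.45 in DSS_WT, overlapping. In Naive_KO it gave 12.65, 12.84, 12.94 and 13.10 and in DSS_KO 12.90, 12.99, 13.25 and 13.45. Its differences with DSS were alike in the 2 genotypes, 0.24 in WT (limma adjusted p = 0.345) and 0.26 in the knockout (adjusted p = 0.322), and those between genotypes were under 0.2. Under common-median scaling Hsp90b1 passed the 0.05 limit with DSS in both genotypes, at 0.62 in each (adjusted p = 0.0173 and 0.0170), or 0.37 and 0.39 above the median of all probes. Pdia4 gave 10.52, 10.53, 10.66 and 10.72 in Naive_KO, above the 9.84, 10.27, 10.38 and 10.45 of Naive_WT with no overlap. The difference was 0.37 (adjusted p = 0.170), and with DSS, where the groups overlapped, 0.27 (adjusted p = 0.331).

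Dnajb9 encodes ERdj4, a co-chaperone of BiP that Xbp1 induces. By probe ILMN_2510875 the DSS_WT samples gave 9.30, 9.36, 9.38 and 10.28, with replicate 2 far above the others. The other 12 samples lay between 9.36 and 9.92. DSS_WT against Naive_WT was -0.21 (limma adjusted p = 0.488) with this replicate and -0.44 without it (adjusted p = 0.0334). Probe ILMN_2829636 also had its highest value, 11.77, in DSS_WT replicate 2, and the 2 probes had a Pearson r of 0.71. The largest difference of Dnajb9 between groups was -0.30, by this probe in DSS_KO against DSS_WT (limma adjusted p = 0.369).

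Herpud1 encodes an ER membrane protein of the degradation machinery that removes misfolded proteins. By probe ILMN_2790241 the Naive_KO samples gave 13.02, 13.23, 13.23 and 13.30 and the DSS_KO samples 12.80, 12.81, 12.91 and 12.98, with no overlap. By probe ILMN_2790246 they gave 12.72, 12.81, 12.81 and 13.04 against 12.45, 12.56, 12.62 and 12.66, again with no overlap. The differences, -0.32 and -0.28, did not pass (limma adjusted p = 0.0803 and 0.162). In DSS_WT against Naive_WT they were -0.24 and -0.20 with overlapping groups, and all 4 values turned positive under common-median scaling, by 0.08 to 0.17. Each of the 4 still lay below the median of all probes under that scaling.

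Groups that do not overlap were found for 4 of 14 probes in DSS_KO against Naive_KO (15.9% of all probes), 3 in DSS_WT against Naive_WT (17.0%), 1 in DSS_KO against DSS_WT (14.7%) and 1 in Naive_KO against Naive_WT (12.3%). The 4 were both Herpud1 probes, Ern2 and 1 probe of Ddit3. The 3 were Ern2 and both Ddit3 probes, and the single ones were Ern2 with DSS and Pdia4 without. These comparisons share their samples in pairs, so their counts are not independent.

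The wider response was read from 6 lists of 143 genes, of which 131 were tested, each by its brightest probe. No list gene was called in any comparison (limma). At an adjusted p under 0.05, 8 of 131 rose and 3 fell in Naive_KO against Naive_WT, and 5 rose and 1 fell in DSS_KO against DSS_WT. With DSS, 8 rose and 5 fell in WT, and 6 rose and 6 fell in the knockout. As shares, 8.40%, 4.58%, 9.92% and 9.16% of the list genes passed, against the 5.19%, 5.63%, 10.5% and 9.42% of all probes given above.

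**Figure D4:**
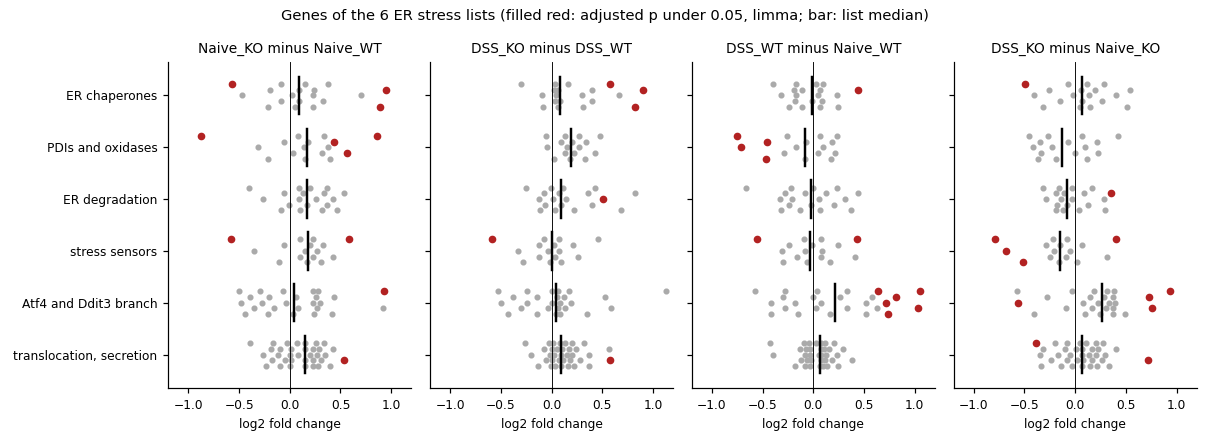
Log2 fold changes of the genes of 6 ER stress lists in the 4 comparisons, a point per gene, with the list median as a black bar and genes with an adjusted p under 0.05 in red. The points lie between -0.87 and 1.13, and the red points of the Atf4 and Ddit3 branch lie mostly to the right of 0 with DSS.

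The ER chaperone list (19 of 21 genes tested) held 3 of the 5 list genes that rose in DSS_KO against DSS_WT and 2 of the 8 that rose in Naive_KO against Naive_WT. Of its 19 genes, 3 rose and none fell in the first and 2 rose and 1, Fkbp7, fell in the second, where 5.63% and 5.19% of all probes passed in either direction. Sdf2l1, which keeps BiP clients soluble in the lumen, gave 8.80, 9.19, 9.52 and 9.70 in Naive_WT and 10.12, 10.26, 10.30 and 10.32 in Naive_KO. It rose by 0.94 (limma adjusted p = 0.0149) in untreated mice and by 0.90 (adjusted p = 0.0162) with DSS, where DSS_WT gave 8.81 to 9.57 and DSS_KO 9.62 to 10.34. Both pairs of groups were separate, and the effect had nearly the same size in each. Creld2, an ER protein induced by the same stress, gave 10.23 to 10.56 in Naive_WT and 11.10 to 11.46 in Naive_KO. It rose by 0.89 (adjusted p = 0.00131) in untreated mice, with 0.72 by its other probe, and by 0.58 with DSS (adjusted p = 0.0173). Calr, the lectin chaperone calreticulin, rose in DSS_KO against DSS_WT by 0.82 (adjusted p = 0.0129), from 7.58 to 8.56 in DSS_WT up to 8.93 to 9.12 in DSS_KO, and differed by 0.23 in untreated mice (adjusted p = 0.464). Hspa5, in the same list, differed by -0.47 and 0.30 in these comparisons, as given above. With DSS, Sdf2l1 and Creld2 missed the limit without DSS_WT replicate 2 or without DSS_KO replicate 8, and under common-median scaling so did all of these rises except that of Creld2 in untreated mice. In DSS_KO against DSS_WT, 6 of 10 smooth muscle and fibroblast markers and 5 of 7 endothelial markers fell, with medians of -0.92 and -0.95, and their part in these differences was not tested. In Naive_KO against Naive_WT, 2 of 8 goblet cell markers rose and none fell, Spdef, a goblet cell transcription factor, by 0.86 (adjusted p = 0.00542) and Retnlb, a goblet cell secreted protein, by 2.19 (adjusted p = 0.0227), and their part was not tested either. There 6 of 7 myeloid markers lay above 0 with a median of 0.67 and 1, Csf1r, passed (adjusted p = 0.0486), and 6 of 6 B and plasma cell markers lay above 0 with a median of 0.41 and none passed. In DSS_KO against DSS_WT, 1 of 5 neutrophil markers passed, Ltf, which rose by 1.38 (adjusted p = 0.0143), and 1 of 4 T and NK cell markers fell, Cd3g, by 0.45 (adjusted p = 0.0490). In Naive_KO against Naive_WT all 10 smooth muscle and fibroblast markers lay below 0 with a median of -0.42 and none passed, and 1 of 7 endothelial markers fell, Esam, by 0.75 (adjusted p = 0.0263). The part of these cells was not tested.

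**Figure D5:**
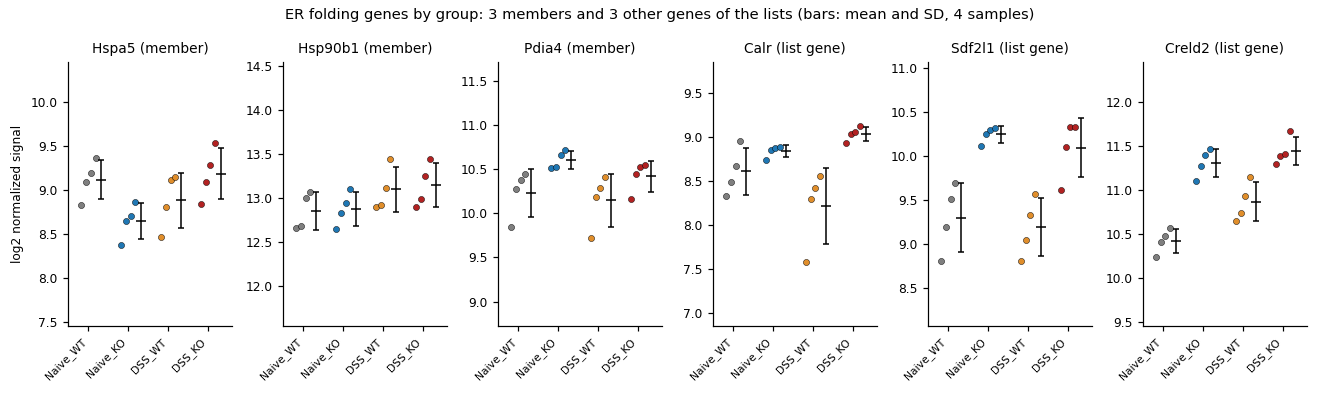
Log2 normalized signal of 6 ER folding genes by group, with points for samples, bars for the mean and SD of 4 samples and panels 3 log2 units high. Sdf2l1 and Creld2 sit higher in both knockout groups than in the WT group of the same treatment, whereas Hspa5, Hsp90b1 and Pdia4 overlap in most comparisons.

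The sensor list (16 genes, all tested) had both directions. Eif2ak3, which encodes Perk, fell with loss of Mbd2 by 0.58 in untreated mice (limma adjusted p = 0.0349) and by 0.59 with DSS (adjusted p = 0.0302). Its values were 7.00 to 7.61 in Naive_WT, 6.56 to 7.21 in Naive_KO, 7.29 to 7.60 in DSS_WT and 6.77 to 6.92 in DSS_KO. The untreated groups overlapped and that call held in 17 of 26 settings, the one with DSS in 20, and without background correction the 2 values were -0.31 and -0.32. Ern1, the paralog of Ern2 found in most tissues, fell in DSS_WT against Naive_WT by 0.56 (adjusted p = 0.0317) by 1 probe, and another gave 0.03. Under common-median scaling the first gave -0.17. Creb3l1, an ER-bound transcription factor of secretory cells, fell in DSS_KO against Naive_KO by 0.79 (adjusted p = 0.0333) with overlapping groups, its other probe gave -0.23, and common-median scaling gave -0.41. Ern2 and Xbp1 are counted in the same list.

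Of the disulphide isomerases and oxidases (16 of 17 tested), 3 rose and 1 fell in Naive_KO against Naive_WT, where 5.19% of all probes passed in either direction. Agr2, a goblet cell isomerase needed for mucin folding, gave 10.13 to 10.72 in Naive_WT and 8.91 to 9.78 in Naive_KO, a fall of 0.87 (limma adjusted p = 0.0322). It also fell in DSS_WT against Naive_WT, by 0.72 (adjusted p = 0.0490), which passed the 0.05 limit in 9 of 26 settings, with -0.31 under common-median scaling. Its other differences were 0.27 in DSS_KO against DSS_WT (adjusted p = 0.520) and 0.43 in DSS_KO against Naive_KO (adjusted p = 0.248), and the interaction of 1.14 did not pass (unadjusted p = 0.00206, adjusted p = 0.232). The rises of Spdef and Retnlb given above were in the same comparison as its first fall, and Retnlb also rose in that of its second fall, by 2.60 (adjusted p = 0.00467). Of the 8 goblet cell markers, 6 lay above 0 in the first comparison (median 0.22) and 5 in the second (median 0.05). In the first, Tff3 lay at -0.92 (limma adjusted p = 0.0591) and Zg16 at -0.53 (adjusted p = 0.338). In DSS_WT against Naive_WT 4 genes of the list fell and none rose, where 10.5% of all probes passed in either direction, among them Qsox1, a secreted sulfhydryl oxidase, by 0.76 (adjusted p = 0.0141) with -0.39 under common-median scaling (adjusted p = 0.215). Fkbp7, a prolyl isomerase of the chaperone list, fell in Naive_KO against Naive_WT by 0.57 (adjusted p = 0.0323), or -0.27 without background correction.

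The Atf4 and Ddit3 branch (26 of 31 genes tested) had members past the limit in both comparisons with DSS. In DSS_WT against Naive_WT 6 of 26 genes rose and none fell, where 10.5% of all probes passed in either direction, with a list median of 0.21 against -0.01 over all probes. In DSS_KO against Naive_KO 3 rose and 1, Ddit3, fell, where 9.42% of all probes passed, with a median of 0.26. Psat1, an enzyme of serine synthesis, rose by 1.03 in WT (limma adjusted p = 0.0103) and by 0.93 in the knockout (adjusted p = 0.0184). Shmt2, of mitochondrial one-carbon metabolism, rose by 0.82 (adjusted p = 0.00809) and 0.73 (adjusted p = 0.0154), though its other probe gave 0.04 and 0.51. Atf5, a transcription factor that stress induces in translation, rose by 0.64 (adjusted p = 0.0403) and 0.76 (adjusted p = 0.0178). Trib3, a pseudokinase and target of Chop, rose in WT by 1.05 (adjusted p = 0.0210), with 0.35 by its other probe, while Ddit3 itself was at -0.41 and -0.45. Slc7a11, the cystine transporter, rose in Naive_KO against Naive_WT by 0.93 (adjusted p = 0.0132) and in DSS_WT against Naive_WT by 0.72 (adjusted p = 0.0279). Its other probe gave 0.48 in the first of these, its signal was low (4.80 to 5.31 in Naive_WT, detected on 17 of 18 arrays), and without background correction the 2 values were 0.27 and 0.20. The same setting gave 0.38 for Trib3 in WT and 0.39 and 0.37 for Shmt2. Common-median scaling gave 1.01 for Atf5 in WT. Trib3 missed the limit when any 1 of DSS_WT replicates 2 and 4 and Naive_WT replicates 11 and 12 was left out. In the knockout, Psat1 missed it without DSS_KO replicate 6 or 8 or Naive_KO replicate 14 or 16, and Shmt2 without DSS_KO replicate 8. Atf5 missed it in WT with no filter on dim probes and when any 1 of DSS_WT replicates 1 to 4 or Naive_WT replicates 9, 11 and 12 was left out, and in the knockout without DSS_KO replicate 5 or Naive_KO replicate 16.

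Of 19 tested genes of ER-associated degradation, 1 rose in DSS_KO against DSS_WT and 1 in DSS_KO against Naive_KO, where 5.63% and 9.42% of all probes passed in either direction. Of 35 tested genes of translocation and early secretion, 1 rose in Naive_KO against Naive_WT (Sec61a1, by 0.54), 1 rose and 1 fell in DSS_KO against Naive_KO (Sec61g by 0.72 and Sar1b by 0.39), and 1 rose in DSS_KO against DSS_WT. The shares of all probes in these comparisons were 5.19%, 9.42% and 5.63%. The last of these genes, Spcs2, a subunit of the signal peptidase, rose by 0.58 (limma adjusted p = 0.0393), with overlapping groups and a signal of 5.18 to 6.34 near the floor of the array. It passed in 13 of 26 settings and was 0.20 without background correction. The list medians in all comparisons lay between -0.15 and 0.26.

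The genes of the set did not vary as a unit. Among the 45 pairs of the 10 genes, each by its brightest probe, Pearson r over the 16 samples ranged from -0.49 to 0.76 with a median of 0.33, and 11 pairs lay above 0.5. The highest were Herpud1 with Ern2 (0.76) and Atf3 with Atf4 (0.73), and the lowest was Ern2 with Hsp90b1 (-0.49). Hspa5 had an r of 0.63 with Hsp90b1, 0.03 with Pdia4, -0.06 with Herpud1, -0.40 with Xbp1 and -0.44 with Ern2. The points share their groups and arrays, so these values describe the pattern and carry no test.

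The genes most like each member over the 16 samples were mostly outside the stress response. Hspa5 was most like Nono (Pearson r 0.88) and Ube2j1 (0.87), a ubiquitin-conjugating enzyme of the ER. Ern2 was most like Sybu, Man2b1 and Zer1 (each 0.92), and Ddit3 was most like Agpat1 (0.90), Coq9 (0.90) and Hpd (0.89). Pdia4 was most like Recql (0.88) and Hsp90ab1 (0.86), the cytosolic relative of Hsp90b1, and Atf3 was most like Cldn23 (0.93) and Carhsp1 (0.92). These were among the 3 highest of 15757 genes for each member, so values of this size are picked from many.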

How the data were processed

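The deposited table held, for 45281 probes and 974 control probes on 18 arrays, signal intensity and a detection p-value from the deposited scanner output, per the file headers not background-corrected or normalized. The 72 columns of bead errors, bead counts and the like were not used. Columns followed the labels. The labels name lumi and limma for the authors' processing, with no versions.

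Signals were corrected and quantile-normalized by the neqc function of limma 3.58.1 (R 4.3.3) with an offset of 16 to log2 values, and arrays 4 with 4R and 5 with 5R were averaged. The SD of log2 differences was 0.194 and 0.236 within these pairs and 0.287 to 0.482 between other arrays of the 2 groups. Probes with detection p under 0.05 on at least 4 arrays were tested. A mean per group was fitted over 16 samples (lmFit, eBayes, 12 residual degrees of freedom), with Benjamini-Hochberg adjustment over the 21938 probes. The number of arrays limits the precision. The fit was tested on simulated data. The 29586 probes with an Entrez ID in the RefSeq table took its current symbol. A gene with several probes was read by the brightest in lists. The genes and lists were chosen with earlier results of these data known. Member fold changes are given where they reached 0.2 on the log2 scale, an unadjusted p under 0.05 or groups without overlap. List genes were named where they had the 3 largest rises or falls at an adjusted p under 0.05 in a comparison, with their values in other comparisons that passed. Alternatives changed background correction, scaling, offset, filter, repeat arrays, groups in the fit and array weights, and left out each sample in turn.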

Additional observations from a re-analysis of the deposited data

Results flagged for a closer look

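In 56 sets of 4 values (14 probes in 4 groups), 6 held a sample that stood apart from the other 3 by Dixon's criterion, and chance alone gives about 1 in 20. Ddit3 probe ILMN_2652909 was lowest at 9.52 in DSS_WT replicate 4 and at 9.68 in DSS_KO replicate 5. Ddit3 probe ILMN_2927373 was lowest at 9.18 in the same DSS_KO replicate 5. Atf3 was highest at 13.77 in DSS_WT replicate 2, and so was Dnajb9 probe ILMN_2510875 at 10.28 in that sample. Dnajb9 by the same probe was lowest at 9.40 in DSS_KO replicate 6. The samples DSS_WT 4 and DSS_KO 5 were those with a repeat array, and the repeats differed from the first arrays by at most 0.26 and 0.28 on the log2 scale over the 14 probes.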

How the results depend on the processing

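The number of called probes of the set was 0 under all alternatives, 25 per comparison and 24 for the interaction. At an adjusted p under 0.05, the count in DSS_WT against Naive_WT, 0 in the report, was 1 under common-median scaling (Hsp90b1), 3 with 18 arrays as separate replicates, 2 with array weights and 0 to 1 with each sample left out in turn (1 without DSS_WT replicate 1, DSS_WT replicate 2 or Naive_KO replicate 15). In DSS_KO against Naive_KO, 2 in the report, it was 1 with no filter on dim probes, 1 with only the 2 groups in the fit, 4 with array weights and 1 to 3 with each sample left out. Common-median scaling also gave 2 there, but these were Hspa5 and Hsp90b1 (0.62, adjusted p = 0.0170) and not Ern2 and Ddit3. The same scaling turned the sign of 11 of 41 member values given, none of them past the limit. In DSS_WT against Naive_WT these became 0.16 for Hspa5, 0.0569 for the second Atf4 probe, 0.15 and 0.17 for Herpud1, 0.20 for Dnajb9 probe ILMN_2510875 and 0.0693 for Ern2. In DSS_KO against Naive_KO they became 0.11 for Xbp1, 0.20 for the first Atf4 probe, 0.0832 and 0.13 for Herpud1 and 0.13 for Dnajb9 probe ILMN_2829636. Each of these values still lay below the median of the tested probes under that scaling, so none changed side of that median. Why the median moved was not tested. Of the other 29 member values, each at most 0.19 in size, 24 changed sign under some alternative. The 40 list gene values given kept their sign under all alternatives, and 243 of their 1000 values under alternatives missed the 0.05 limit. Creld2 in Naive_KO against Naive_WT and Psat1 and Shmt2 in DSS_WT against Naive_WT passed under all 25. Sdf2l1 passed under 24 in untreated mice and 22 with DSS. Counting the report's own setting, 26 in all, Eif2ak3 passed in 17 (untreated) and 20 (DSS), Agr2 in 19 (Naive_KO against Naive_WT) and 9 (DSS_WT against Naive_WT), Ern1 in 18, Creb3l1 in 17, Fkbp7 in 18 and Spcs2 in 13. A chip block was not run because the headers give no chip, so a chip effect that runs with DSS could not be told apart from it. Over all probes, the called count ranged over the alternatives from 43 to 420 in DSS_KO against DSS_WT (189 in the report), from 39 to 279 in Naive_KO against Naive_WT (144), from 75 to 660 in DSS_WT against Naive_WT (382) and from 102 to 721 in DSS_KO against Naive_KO (377). The count at an adjusted p under 0.05 ranged from 466 to 2798 (1235), 322 to 1548 (1139), 1218 to 5273 (2295) and 1095 to 4560 (2066). No paired analysis was possible because the samples are numbered once through the series and the groups share none of the numbers.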

Other observations

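The remaining list genes with an adjusted p under 0.05 (limma) were chosen after their values were seen. In Naive_KO against Naive_WT, Txndc11, a thioredoxin-domain protein of the ER, rose by 0.86 (adjusted p = 0.0132). P4hb, the protein disulphide isomerase PDI, rose by 0.43 (adjusted p = 0.0314), and Ero1b, an oxidase that recharges it, by 0.57 (adjusted p = 0.0431). Wfs1, an ER membrane protein, rose by 0.58 (adjusted p = 0.0277), and Sec61a1, the core of the translocation channel, by 0.54 (adjusted p = 0.0387). In DSS_KO against DSS_WT, Derl2, of ER-associated degradation, rose by 0.51 (adjusted p = 0.0112).

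With DSS, Cebpb, a transcription factor that pairs with Chop and also acts in inflammation, rose in WT by 0.73 (limma adjusted p = 0.00238). Creb3l2, an ER-bound transcription factor, rose by 0.43 in WT (adjusted p = 0.0342) and 0.41 in the knockout (adjusted p = 0.0449). Erp44 and Tmx1, of the isomerase list, fell in WT by 0.46 each (adjusted p = 0.0450 and 0.0457), and Creld2 rose by 0.44 (adjusted p = 0.0404). In the knockout Sec61g rose by 0.72 (adjusted p = 0.0379) and Aup1 by 0.35 (adjusted p = 0.0477). Sil1, which releases ADP from BiP, fell there by 0.49 (adjusted p = 0.0149), Mbtps1, the protease that cleaves Atf6, by 0.51 (adjusted p = 0.0244) and Sar1b, of vesicle export, by 0.39 (adjusted p = 0.0191). Ero1b, Erp44, Aup1 and, in the knockout, Creb3l2 passed in 13 of 26 settings and Tmx1 in 12. Without background correction the values were 0.29 for Ero1b, 0.55 for Txndc11, 0.33 for Wfs1 and 0.17 for Creb3l2 in each genotype. Common-median scaling gave 0.24 for P4hb, -0.17 for Erp44, -0.12 for Tmx1, -0.11 for Sil1, -0.13 for Mbtps1 and under 0.01 in size for Sar1b, and it gave more for Cebpb (1.12), Sec61g (1.09), Aup1 (0.75), Creld2 in WT (0.85) and Creb3l2 in the knockout (0.65). These values include the shift of the median of all probes under that scaling, upward with DSS and downward in Naive_KO against Naive_WT.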
